A study of Mus musculus with 22 samples.

Results

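Livers given rAAV9.CB.EGFP, an AAV9 capsid that carries a genome with the green fluorescent reporter EGFP behind the CB promoter, were compared with livers given AAV9.empty, the same capsid without a vector genome. They were chosen by their treatment label alone, 4 livers with the reporter vector and 4 with the empty capsid, and so 8 of the 22 livers sequenced. All came from male WT C57BL/6 pups that received an intravenous injection on postnatal day 1 and whose livers were collected 36 hours later. For the genes described, values are also given in livers of pups treated in the same way with rAAV9.CB.ST3GAL5 (3 livers, the CB promoter with human ST3GAL5), with rAAV9.Syn1.ST3GAL5.miR122BS (4 livers, the neuronal Syn1 promoter and binding sites for the hepatocyte microRNA miR-122) or with PBS (4 livers). The question was what a vector genome with a reporter adds to the capsid alone. The DNA of the genome and the protein made from it were delivered together and cannot be told apart, and the EGFP transcript was not analysed here. The study's methods give the intravenous dose in genome copies and state none for the empty capsid. A difference in capsid dose between the groups was not tested.

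The CB promoter is a ubiquitous promoter built around that of chicken β-actin, and AAV9 given into a vein reaches hepatocytes well. An AAV genome enters the nucleus as single-stranded DNA with hairpin ends, and the cell then makes it double-stranded. The transcription factor p53 responds to damaged or unusual DNA by raising genes that halt the cell cycle, repair DNA, start apoptosis or, like Mdm2, turn p53 itself down again. It binds DNA at the p53 response element, which is made of 2 half-sites of 10 bases with a fixed C and G in the core of each, and it is controlled mainly through the stability of the protein and less through its own transcript.

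RNA-Seq libraries held 17587496 to 21387813 expected counts in the rAAV9.CB.EGFP livers and 18500161 to 21841146 in the AAV9.empty livers, and the 10 most abundant genes took 22.02% to 22.12% and 21.72% to 23.01% of them. Levels are counts per 1000000 (CPM) after TMM normalization, and tests are those of edgeR (quasi-likelihood), with p-values adjusted by Benjamini-Hochberg across all 14473 genes tested. Litters are not given in the labels, so that the p-values cover no more than the spread among the livers sampled. All 12 hepatocyte markers were detected, and they summed to 139070 to 153180 CPM with rAAV9.CB.EGFP and 131310 to 156110 CPM with AAV9.empty. Among them the median log2 fold change was 0.00, and none passed the test (0 by DESeq2 as well, and 2 lower at an unadjusted p under 0.05). One feature divided the livers across the groups. Gm47283 had no count in rAAV9.CB.EGFP replicates 1, 2 and 4, nor in AAV9.empty replicate 4, and stood at 18.3 CPM in rAAV9.CB.EGFP replicate 3 and at 21.2, 20.1 and 12.5 CPM in AAV9.empty replicates 1 to 3. Erdr1 had no count in the same 4 livers. With the presence of Gm47283 as a covariate, 43 of the 64 genes that passed the test remained past it and none changed direction. Of the genes that fell, Slfn9 and Aurkb remained, while Cldn2, Brip1os, Gm20716, Anln, Inmt and Kpna2 did not.

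Few genes differed between the reporter vector and the empty capsid. Of the 14473 genes, 56 passed an adjusted p of 0.05 as higher in the rAAV9.CB.EGFP livers (0.387%) and 8 as lower (0.0553%). With a fold change of at least 2 as well, 23 were higher (0.159%) and 1, Inmt, was lower (0.00691%). In 535 genes all 4 rAAV9.CB.EGFP livers lay above all 4 AAV9.empty livers (3.7% of those tested), and in 428 genes all lay below (2.96%). Of the 56 genes that rose, the groups did not overlap in 55, the exception being Hamp, and they did not overlap in any of the 8 that fell. Across all genes the median log2 fold change was 0.01 and 51.6% of the values were positive, so the values were centred near 0. At an unadjusted p under 0.05, 950 of the 14473 genes were higher and 856 lower. DESeq2, run on the same counts, passed 157 genes as higher and 78 as lower, among them all 64 of edgeR. The balance of directions depended on the fit, with 60 higher and 46 lower without rAAV9.CB.EGFP replicate 1 and 90 higher and 75 lower with an erythroid score as covariate. In these bulk samples a change in the number of cells of a type and a change in RNA per cell cannot be told apart.

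**Figure D1:**
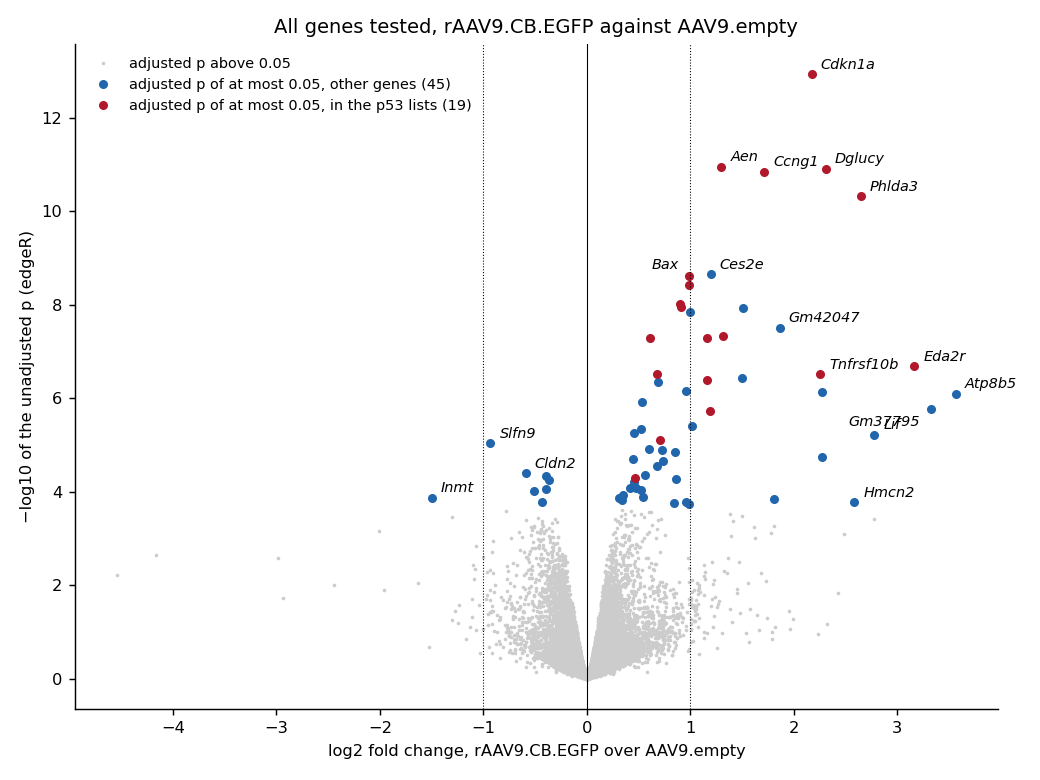
Each point is 1 of the 14473 genes tested, with the log2 fold change of rAAV9.CB.EGFP over AAV9.empty on the x axis and −log10 of the unadjusted edgeR p on the y axis (4 livers each). Red points are the 19 genes past an adjusted p of 0.05 that belong to the p53 lists, blue points the 45 others, and dotted lines mark a fold change of 2. Cdkn1a is the uppermost point, and only Inmt among the genes that fell lies beyond a dotted line.

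Genes of the p53 response led the list. Of 56 members of the 3 p53 lists that were tested, 19 rose, none fell, and the median log2 fold change was 0.32, against 0.387% higher and a median of 0.01 among all genes. DESeq2 passed 25 of the 56 as higher and limma on log2(TPM + 1) 15, and neither passed any as lower, while 1 member, Trp53 itself, was lower at an unadjusted p under 0.05. These lists were chosen with earlier results of these data known, so the count describes them and is no independent support. Of the 10 genes with the smallest p, 9 were in these lists, the tenth being the carboxylesterase gene Ces2e. The groups stood far apart in most of these genes. As a reference for the transcripts that follow, the promoter windows that hold a p53 response element are shown first, since they belong to 5 of the genes that rose. They come from RefSeq (GRCm38.p6), 250 bases before to 50 bases after each gene's start, and 2 half-sites were sought on both strands, the element being its own reverse complement, with intact cores, at most 1 base between them and at most 3 other mismatches. Capitals mark the half-sites, and each sequence runs 5′ to 3′ along the gene's strand.
Cdkn1a (chr17:29090913-29090962, plus strand, 1 mismatch): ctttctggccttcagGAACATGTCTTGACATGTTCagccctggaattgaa
Rps27l (chr9:66946281-66946330, plus strand, 1 mismatch): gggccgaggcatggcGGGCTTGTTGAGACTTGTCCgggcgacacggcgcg
Bax (chr7:45467064-45467114, minus strand, 2 mismatches): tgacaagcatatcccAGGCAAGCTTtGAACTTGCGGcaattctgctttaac
Aen (chr7:78895922-78895971, plus strand, 3 mismatches): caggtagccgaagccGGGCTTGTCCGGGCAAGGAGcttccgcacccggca
Bbc3 (chr7:16309471-16309520, plus strand, 3 mismatches): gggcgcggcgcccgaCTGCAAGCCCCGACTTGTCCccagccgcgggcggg

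A promoter window was at hand for 43 of the 56 genes that rose, and these 5 of the 43 held a match, while 1.23% of the 27025 genes with a window did and 1.0% of the 10997 tested genes with one. None of the 6 genes that fell and had a window held one. These limits were set after matches had been seen. With up to 13 bases between half-sites and at most 1 mismatch, the genes with a match were Cdkn1a, Rps27l, Serpina3n and Inka2, against 0.47% of all genes. With up to 13 bases and at most 3 mismatches, 10 of the 43 genes that rose and 1 of the 6 that fell held a match, against 7.63% of all genes. A match says only that these letters stand in the window, and p53 binding was not measured.

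Cdkn1a encodes p21, the inhibitor of cyclin-dependent kinases through which p53 halts the cell cycle, and lies on chromosome 17 at 29090976 to 29100727 (GRCm38). It was at 131, 131, 124 and 128 CPM in the rAAV9.CB.EGFP livers, against 24.9, 31.3, 28.04 and 29.9 CPM in the AAV9.empty livers. That gap was many times the spread within either group (log2 fold change 2.17, SE 0.074, adjusted p = 1.70e-09 by edgeR), the smallest p of all genes. Livers given PBS held 18.5 to 26.1 CPM. Without any 1 of the 8 livers the log2 fold change stayed between 2.11 and 2.22.

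Cdkn1a was 1 of 12 genes that rose among the 31 tested members of the list of arrest, repair and metabolism in the p53 program, at a median log2 fold change of 0.47. Phlda3, whose product holds back the kinase Akt (chromosome 1, 135766119 to 135769136), was at 27.7, 29.4, 31.7 and 26.4 CPM with rAAV9.CB.EGFP, against 3.79, 4.92, 6.05 and 3.69 CPM with AAV9.empty, 2.65 on the log2 scale (SE 0.14, adjusted p = 1.39e-07). Dglucy, which encodes D-glutamate cyclase, was at 18.9, 18.5, 18.3 and 19.6 CPM, against 3.65, 3.82, 4.48 and 3.30 CPM with the empty capsid (2.31, adjusted p = 5.15e-08). Both changes exceeded that of Cdkn1a, and in neither gene did the groups come near each other. Ccng1, which encodes cyclin G1, a partner of Mdm2, was at 70.5, 67.5, 74.1 and 57.7 CPM, against 21.6, 19.2, 21.2 and 20.3 CPM (1.72, adjusted p = 5.15e-08). Zmat3, an RNA-binding zinc finger protein, was at 17.1 to 21.4 CPM against 5.94 to 8.06 CPM (1.32), and Psrc1, a protein of the mitotic spindle, at 17.5 to 20.3 CPM against 6.81 to 9.22 CPM (1.16).

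Among the smaller changes of this list that passed, the groups did not overlap either. Ephx1, the microsomal epoxide hydrolase, was at 231 to 276 CPM with rAAV9.CB.EGFP and 121 to 145 CPM with AAV9.empty (log2 fold change 0.99, SE 0.074, adjusted p = 6.92e-06). Sesn2, a sestrin that restrains mTORC1, was at 31.6 to 36.0 CPM against 16.6 to 18.1 CPM (0.91), and Dcxr, a reductase of L-xylulose, at 62.6 to 69.2 CPM against 30.9 to 38.7 CPM (0.90). The antiproliferative gene Btg2 had a log2 fold change of 0.71, the ribosomal protein gene Rps27l one of 0.61 and the lipase gene Abhd4 one of 0.47. Abhd4 did not pass in 4 of the 8 fits that left out 1 liver. Btg2 and Abhd4 each missed in 3 of the 12 other settings. The 19 members that did not pass included Ercc5, a nuclease of nucleotide excision repair, at 10.98 to 13.2 CPM against 7.74 to 9.56 CPM (0.53, adjusted p = 0.0613), and Polk, a translesion polymerase, at 6.65 to 8.52 CPM against 3.73 to 5.29 CPM (0.72, adjusted p = 0.0678). In both the groups did not overlap. Gadd45a, a growth arrest gene, was at 21.7 to 26.4 CPM against 20.3 to 23.5 CPM, with groups that overlapped (0.11, adjusted p = 0.627).

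Of 17 proapoptotic p53 targets, 7 rose and none fell, at a median log2 fold change of 0.32. The list reached from the cell surface to the mitochondrion. Eda2r, a receptor of the TNF receptor family that binds ectodysplasin A2 (chromosome X, 97333840 to 97377216), was at 2.75, 2.48, 3.71 and 2.46 CPM in the rAAV9.CB.EGFP livers, against 0.374, 0.157, 0.324 and 0.388 CPM in the AAV9.empty livers (log2 fold change 3.16, SE 0.33, adjusted p = 0.000179 by edgeR). Tnfrsf10b, the mouse death receptor for TRAIL (chromosome 14, 69767472 to 69784411), was at 10.1, 10.04, 8.34 and 5.54 CPM, against 1.12, 2.30, 1.999 and 1.70 CPM (2.26, SE 0.24, adjusted p = 0.000236). Both receptor genes were scarce with the empty capsid, and replicate 4 of rAAV9.CB.EGFP was the lowest of its group in each. Inside the cell, Bax, which opens the outer mitochondrial membrane, was at 54.6, 58.8, 54.2 and 53.7 CPM, against 30.4, 29.2, 24.8 and 26.9 CPM (0.99, adjusted p = 5.18e-06). Bbc3, the BH3-only protein PUMA, was at 6.56 to 8.96 CPM against 3.18 to 3.79 CPM (1.19), Aen, an apoptosis-enhancing nuclease, at 57.9 to 63.0 CPM against 24.1 to 26.2 CPM (1.30), and Trp53inp1, a cofactor of p53, at 34.0 to 51.6 CPM against 14.8 to 20.9 CPM (1.17).

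The rest of the death machinery gave no such picture. Fas, another death receptor, was at 19.6 to 22.9 CPM with rAAV9.CB.EGFP against 16.3 to 18.7 CPM with AAV9.empty (0.32, adjusted p = 0.140), and Pmaip1, the BH3-only protein NOXA, at 3.91 to 4.34 CPM against 2.35 to 3.64 CPM (0.51, adjusted p = 0.306). In both genes the groups did not overlap. Perp and Apaf1 had log2 fold changes of 0.01 and 0.14. Of 26 members of the BCL2 family and the caspases and 19 genes of death receptors, necroptosis and pyroptosis, none passed by edgeR, DESeq2 or limma. At an unadjusted p under 0.05, 1 of the 26 was higher and 2 lower and 1 of the 19 higher and 3 lower, and the median was −0.05 in each list.

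Among 11 genes of p53 and its regulators, 3 rose, Ccng1, Trp53inp1 and Mdm2. Mdm2, the ubiquitin ligase that marks p53 for breakdown, was at 39.7, 39.8, 43.9 and 36.7 CPM in the rAAV9.CB.EGFP livers, against 24.8, 25.3, 24.1 and 26.2 CPM in the AAV9.empty livers (log2 fold change 0.68, SE 0.073, adjusted p = 0.000236 by edgeR). Mdm2 passed in every fit that left out 1 liver but missed in 3 of the 12 other settings, those with limma. Trp53, the gene of p53, was not among the genes that passed. It was at 52.4, 52.0, 48.1 and 53.3 CPM, against 59.9, 63.2, 54.4 and 57.6 CPM, so that every rAAV9.CB.EGFP liver lay below every AAV9.empty liver, without passing the test (−0.19, SE 0.065, adjusted p = 0.248). Trp53cor1, the noncoding RNA next to Cdkn1a also called lincRNA-p21, was at 1.18, 1.73, 1.60 and 1.20 CPM, against 0, 0.575, 0.108 and 0.146 CPM (2.78, adjusted p = 0.0678). Its groups did not overlap either. Mdm4 and Ppm1d, which also restrain p53, had log2 fold changes of 0.34 and −0.06.

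**Figure D2:**
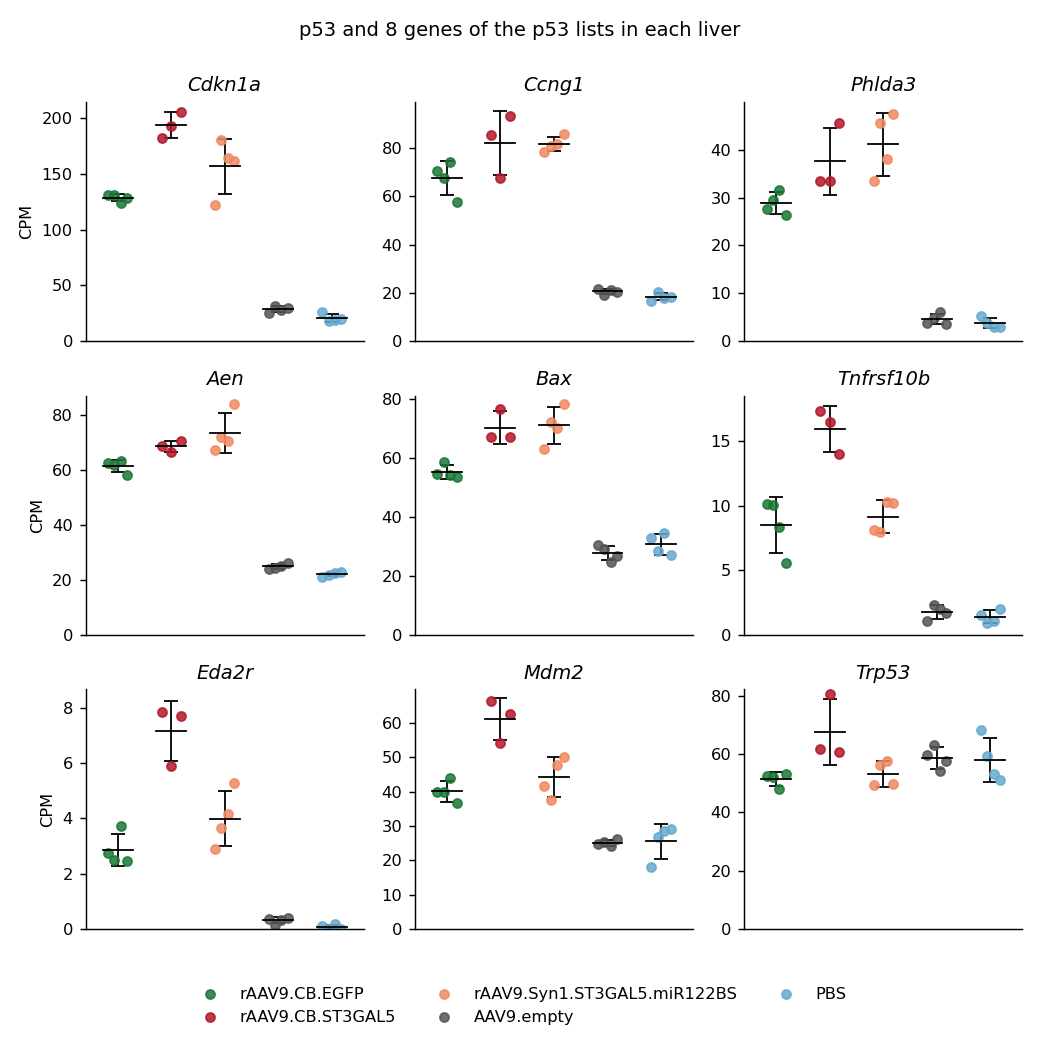
CPM of 9 genes in each liver (points), with the mean (line) and SD (bar) of rAAV9.CB.EGFP (n = 4), rAAV9.CB.ST3GAL5 (n = 3), rAAV9.Syn1.ST3GAL5.miR122BS (n = 4), AAV9.empty (n = 4) and PBS (n = 4), and with each y axis starting at 0. In all panels but that of Trp53, the 4 rAAV9.CB.EGFP livers lie above all AAV9.empty and PBS livers. For Trp53 they lie at 48.1 to 53.3 CPM, below the AAV9.empty livers at 54.4 to 63.2 CPM.

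Of the 12 largest rises, 5 lay in the p53 lists. The others began with Atp8b5, which encodes a phospholipid-transporting ATPase (chromosome 4, 43267159 to 43373833). It was at 3.03, 3.69, 3.91 and 3.47 CPM with rAAV9.CB.EGFP, against 0.0935, 0.209, 0.702 and 0.194 CPM with AAV9.empty (log2 fold change 3.57, SE 0.42, adjusted p = 0.000466), and of 4.38 without AAV9.empty replicate 3. Gm37795, an unnamed transcript on chromosome 4 at 150068539 to 150070997, was at 1.96, 3.52, 3.14 and 3.66 CPM, against 0.140, 0.157, 0.270 and 0.631 CPM (3.33, adjusted p = 0.000933, and 3.99 without AAV9.empty replicate 4). In both genes the control level was so low that 1 liver moved the size of the change, though not its call. Gm37795 shares its first 17 bases with the end of the hairpin of Mir34a, the gene of miR-34a, a microRNA known as a target of p53. The mature strand, 22 bases at chr4:150068473-150068494 on the plus strand, is shown with its seed, bases 2 to 8, in capitals, and comes from RefSeq.
mmu-miR-34a-5p: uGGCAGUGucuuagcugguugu

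Mature microRNAs were not measured in these libraries. Lif, a cytokine of the IL-6 family, was at 1.34, 2.31, 2.63 and 2.12 CPM in the rAAV9.CB.EGFP livers, against 0.187, 0.471, 0.162 and 0.388 CPM in the AAV9.empty livers (2.78, SE 0.39, adjusted p = 0.00273). Hmcn2, a hemicentin of the extracellular matrix, was at 3.03, 2.89, 5.77 and 1.73 CPM, against 0.748, 0.262, 1.08 and 0.146 CPM (2.59, adjusted p = 0.0394), and its call was lost in 6 of the 8 fits that left out 1 liver. Inka2, an inhibitor of the kinase PAK4, was at 3.75, 4.10, 5.87 and 3.66 CPM, against 1.36, 0.262, 1.13 and 0.825 CPM (2.27, adjusted p = 0.00690). These are scarce transcripts whose groups were nonetheless apart. The noncoding transcripts Gm42047, at 99.8 to 147 CPM against 21.6 to 40.5 CPM (1.87), and Gm47761, at 3.61 to 5.44 CPM against 0.594 to 1.15 CPM (2.27), share sequence. Of the 3442 stretches of 31 bases in Gm47761, 2035 also occur in Gm42047, and how reads were shared out between them was not tested.

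Several genes that rose encode enzymes, and they are set side by side here after their values were seen, without being a list that was tested. Ces2e, a carboxylesterase, was at 159, 151, 154 and 147 CPM with rAAV9.CB.EGFP, against 55.1, 64.7, 74.7 and 72.5 CPM with AAV9.empty (log2 fold change 1.20, SE 0.086, adjusted p = 5.18e-06 by edgeR). Gstp3 and Gstp1, glutathione transferases of the pi class, were at 146 to 163 CPM against 104 to 121 CPM (0.46) and at 455 to 581 CPM against 342 to 396 CPM (0.45). Gstp1 shares 38.5% of its 31-base stretches with other genes, all of these with Gstp2. Mgmt, which removes alkyl groups from guanine in DNA, was at 13.7 to 14.9 CPM against 6.36 to 8.37 CPM (0.96), and Rev1, a polymerase that copies past damaged bases, at 19.6 to 24.4 CPM against 11.9 to 16.2 CPM (0.68). Ftcd, an enzyme of histidine breakdown, alone rose among 52 genes that break down amino acids or make urea (0.52). In that list none passed as lower by edgeR, 2 did by DESeq2, 1 was higher and 7 lower at an unadjusted p under 0.05, and 33 of the 52 values were negative. Aldh2, the mitochondrial aldehyde dehydrogenase, had the smallest change of all that passed, at 614 to 690 CPM against 498 to 538 CPM (0.32). Aldh2 lost its call in 7 of the 8 fits that left out 1 liver, Gstp1 in 4 and Rev1 in 3. The lists as a whole had medians near 0. Of 29 phase II enzymes and 21 targets of NRF2, only Gstp1 rose, of 30 cytochrome P450 genes none passed by edgeR (4 higher and 7 lower at an unadjusted p under 0.05, and 1 higher by DESeq2), and the medians were −0.01, 0.01 and −0.05.

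Most of the other genes that rose belong to no list and were likewise singled out after their values were seen. Sulf2, a sulfatase that trims heparan sulfate, was at 27.9, 24.9, 28.7 and 27.3 CPM with rAAV9.CB.EGFP, against 8.97, 8.68, 12.5 and 8.16 CPM with AAV9.empty (1.51, adjusted p = 1.56e-05), and Gria3, a subunit of AMPA receptors, at 7.90 to 11.03 CPM against 2.62 to 3.98 CPM (1.502). Exoc4, a subunit of the exocyst, had a log2 fold change of 0.99, the snoRNA host gene Snhg15 one of 1.01 and P2rx3, an ATP-gated channel, one of 1.81. Sulf2 and Exoc4 kept their calls without any 1 liver, while P2rx3, at 1.20 to 1.62 CPM against 0.243 to 0.486 CPM, lost its call in all 8 such fits. Mbl2, the mannose-binding lectin of hepatocytes, was at 279 to 352 CPM against 177 to 204 CPM (0.69), and Tob1, which like Btg2 slows proliferation, at 70.6 to 86.9 CPM against 29.9 to 49.3 CPM (0.85). The transcription regulators Cebpb, Id1 and Notch1 had log2 fold changes of 0.73, 0.47 and 0.35. Id1 and Notch1 each lost their call in 6 of the 8 fits without 1 liver, and Cebpb missed in 4 of the 12 other settings. The remaining genes that rose were Commd3, H2aj, Glipr2, Glipr1, Gm20634, Gm28959, Pgpep1, Adnp, Thyn1 and Ei24, with log2 fold changes between 0.34 and 0.96. Of these, Thyn1 and Ei24 lost their calls in 7 of the 8 fits without 1 liver, Adnp, Glipr1 and Gm28959 in 6, Pgpep1 in 5 and Gm20634 in 4. Commd3, H2aj and Glipr2 kept theirs in all 8, though H2aj and Glipr2 each missed in 4 of the 12 other settings.

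Inflammatory genes gave few changes. Of 27 acute-phase proteins, 3 rose, Serpina3n, Saa4 and Hamp, and the median log2 fold change was 0.03. Only 1 of them passed with all 6 groups in one fit and none by limma on log2(TPM + 1), and without 1 liver Hamp lost its call in 6 of 8 fits and Saa4 in 4 of 8. Serpina3n, a serine protease inhibitor, was at 966 to 1332 CPM in the rAAV9.CB.EGFP livers and 707 to 812 CPM in the AAV9.empty livers (0.60, adjusted p = 0.00515 by edgeR), Saa4, the constitutive serum amyloid, at 34.3 to 40.2 CPM and 21.7 to 29.8 CPM (0.56), and Hamp, which encodes the iron hormone hepcidin, at 143 to 280 CPM and 83.5 to 146 CPM (0.98, adjusted p = 0.0425). Serpina3n shares 21.6% of its 31-base stretches with other genes and Hamp 33.7%, all of these with Hamp2. Only Lif rose among 20 cytokines and chemokines, and 12 others of that list were too low to test, Ccl3 among them. Tnf was at 0.672, 1.15, 0.721 and 0.771 CPM with rAAV9.CB.EGFP and 0.748, 1.31, 0.270 and 0.534 CPM with AAV9.empty (0.21, SE 0.435, adjusted p = 0.885), and Ccl2, a chemoattractant of monocytes, at 0.953 to 1.64 CPM and 0.942 to 1.57 CPM (0.06, SE 0.29, adjusted p = 0.954). The groups overlapped in both, while Il1a, the alarmin IL-1α, was at 5.77 to 8.34 CPM and 2.52 to 6.41 CPM (0.67, SE 0.24, adjusted p = 0.263). The mouse St3gal5 gene, which the ST3GAL5 vectors are made to replace, was at 171 to 195 CPM and 178 to 192 CPM (−0.01, SE 0.060, adjusted p = 0.968).

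Among genes that sense foreign DNA or answer interferon, none passed the test. Of 40 interferon-stimulated genes none passed by edgeR, DESeq2 or limma, 3 were lower and none higher at an unadjusted p under 0.05, and 38 had negative log2 fold changes, with a median of −0.17. Cxcl10, an interferon-induced chemokine, was at 10.3 to 15.5 CPM with rAAV9.CB.EGFP and 14.0 to 23.1 CPM with AAV9.empty (−0.50, adjusted p = 0.225). Replicate 4 was the highest of the rAAV9.CB.EGFP livers in Gbp2 and Ifit3. Of 23 genes that sense DNA, RNA or capsid, none passed by the same 3 tools (1 higher and 6 lower at an unadjusted p under 0.05), and Cgas, which encodes the cytosolic DNA sensor cGAS, was at 3.19 to 3.98 CPM and 3.998 to 5.703 CPM (−0.44, adjusted p = 0.313). Among 26 genes of DNA damage response and repair none passed by edgeR, 1 was higher and 9 lower at an unadjusted p under 0.05, DESeq2 passed 1 in each direction, and the median was −0.16. Atm and Chek1, kinases that signal damage, had log2 fold changes of −0.34 each.

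**Figure D3:**
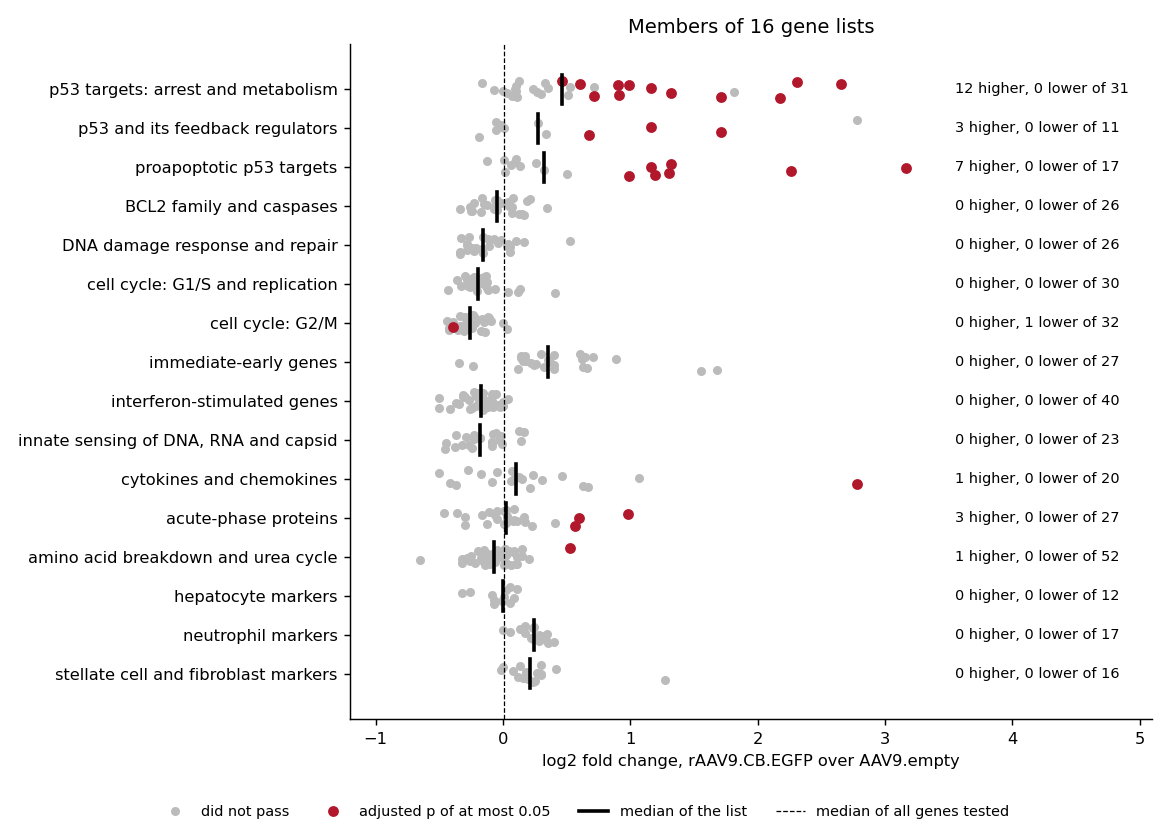
Log2 fold changes of rAAV9.CB.EGFP over AAV9.empty for the tested members of 16 gene lists (points, red where the edgeR adjusted p was at most 0.05), with the median of each list (black line) and of all genes tested (dashed line at 0.01). The counts of members higher and lower stand at the right. The 3 p53 lists hold 12, 3 and 7 red points, some genes standing in 2 lists, while the points of both cell cycle lists lie mostly left of the dashed line and those of the immediate-early genes mostly right of it.

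Genes of dividing cells mostly had small negative values. In the G2/M list 30 of 32 log2 fold changes were negative, at a median of −0.26, yet only Aurkb, the kinase of the chromosomal passenger complex, passed. It was at 43.3, 36.7, 37.1 and 38.7 CPM in the rAAV9.CB.EGFP livers, against 53.5, 51.0, 46.8 and 53.1 CPM in the AAV9.empty livers (−0.39, SE 0.071, adjusted p = 0.0251 by edgeR). At an unadjusted p under 0.05, 19 of the 32 were lower and none higher, and DESeq2 passed 8 as lower. Among all 14473 genes tested, 856 were lower and 950 higher at that p, and DESeq2 passed 78 as lower. Cdc20, which activates the anaphase-promoting complex, was at 58.7 to 79.5 CPM against 80.5 to 95.4 CPM (−0.43, adjusted p = 0.0784), and Plk1, a mitotic kinase, at 46.8 to 62.1 CPM against 55.6 to 76.3 CPM (−0.43, adjusted p = 0.116). Replicate 1 was the highest rAAV9.CB.EGFP liver in Aurkb, Cdc20 and Plk1, and without it 46 genes of all those tested were lower at the adjusted p, in place of 8. Of 30 genes of G1/S and replication none passed by edgeR, 14 were lower and 1 higher at an unadjusted p under 0.05, DESeq2 passed 3 as lower and 1 as higher, and the median was −0.19. The 1 that was higher was Ccnd1, which encodes cyclin D1, at 79.7 to 112 CPM against 68.9 to 81.7 CPM (0.41, adjusted p = 0.0967).

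Beside Aurkb, the 8 genes that fell included Anln, also of cell division, and Kpna2, both named after their values were seen. Anln, the cytokinesis protein anillin, was at 23.03 to 31.7 CPM in the rAAV9.CB.EGFP livers and 34.5 to 40.9 CPM in the AAV9.empty livers (−0.51, adjusted p = 0.0261), and Kpna2, an importin, at 106 to 139.6 CPM and 145 to 165 CPM (−0.44, adjusted p = 0.0394). Of the 31-base stretches of Kpna2, 66.0% also occur in other genes. The largest fall was that of Inmt, an indolethylamine methyltransferase (chromosome 6, 55170626 to 55175043), at 1.68, 3.41, 1.13 and 3.23 CPM against 8.32, 6.12, 6.81 and 5.49 CPM (−1.497, SE 0.28, adjusted p = 0.0350). Slfn9, a schlafen gene, was at 10.8 to 16.3 CPM and 22.4 to 31.8 CPM (−0.93, adjusted p = 0.00394), and Cldn2, the tight junction protein claudin 2, at 42.1 to 46.0 CPM and 53.4 to 76.1 CPM (−0.59, adjusted p = 0.0139). Slfn9 shares 23.6% of its 31-base stretches with other genes. Brip1os and Gm20716 fell by 0.40 and 0.36 on the log2 scale. Gm20716 shares 99.5% of its stretches with other genes, most of them with Adnp, which lies in the same place and rose, so the pair cannot be read as 2 separate genes. Brip1os overlaps exons of Ints2 and Med13 on the opposite strand, and strand is not kept by the library kit. Slfn9 kept its call without any 1 liver, but PBS livers held 11.96 to 19.7 CPM, which overlaps the rAAV9.CB.EGFP livers. Cldn2, Gm20716 and Inmt lost their calls in 4 of the 8 fits that left out 1 liver, Brip1os in 5, Aurkb and Anln in 6 and Kpna2 in 7. With the presence of Gm47283 as a covariate, only Slfn9 and Aurkb of the 8 passed. In all, 21 of the 64 genes overlap an exon of another gene.

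Immediate-early genes, the first to be transcribed after a stimulus, were mostly higher without passing. Of 27 tested, 25 had positive log2 fold changes, at a median of 0.36, none passed by edgeR, 14 were higher and 1 lower at an unadjusted p under 0.05, and DESeq2 passed 3 as higher. Of all 14473 genes tested, 950 were higher and 856 lower at that unadjusted p. Fos, a subunit of AP-1, was at 26.1, 22.9, 30.9 and 27.8 CPM in the rAAV9.CB.EGFP livers, against 1.73, 2.20, 12.6 and 20.2 CPM in the AAV9.empty livers (1.56, SE 0.51, adjusted p = 0.230). The groups did not overlap, but the spread lay in the controls, where replicates 1 and 2 were low and 3 and 4 high. Egr1 was at 87.6 to 135 CPM against 46.9, 40.9, 77.6 and 128 CPM, and Junb at 52.3 to 65.6 CPM against 24.4, 28.9, 37.2 and 55.1 CPM. Gdf15, a stress-induced hormone, had the same order, at 33.7, 20.7, 20.8 and 18.1 CPM against 4.53, 2.88, 7.99 and 15.001 CPM (1.61, adjusted p = 0.0786). In all 4 genes AAV9.empty replicates 1 and 2 were the lowest of the 8 livers and replicate 4 came near or into the range of the reporter vector.

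**Figure D4:**
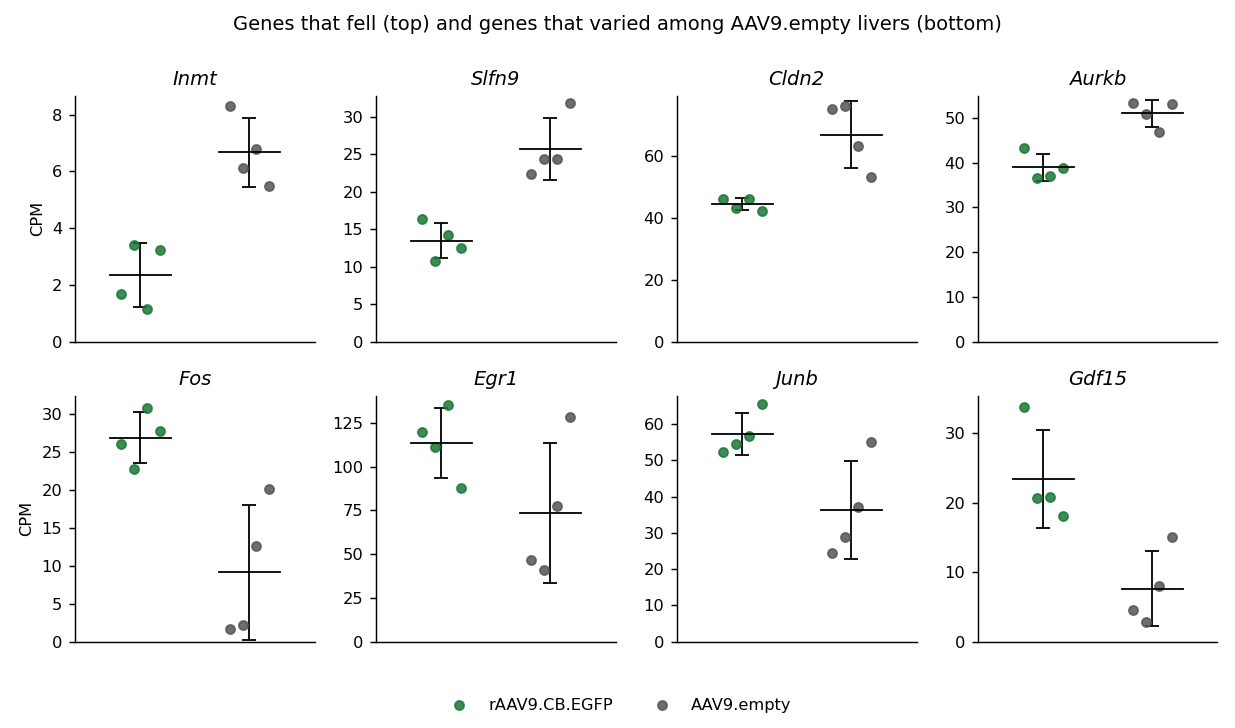
CPM in each of the 4 rAAV9.CB.EGFP and 4 AAV9.empty livers (points in replicate order from left to right), with the mean (line) and SD (bar), each y axis starting at 0. Above, Inmt, Slfn9, Cldn2 and Aurkb fell, with no overlap of the groups. Below, Fos, Egr1, Junb and Gdf15 did not pass, and their AAV9.empty values spread widely, from 1.73 to 20.2 CPM in Fos.

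No marker of another cell type passed by edgeR, though those of neutrophils and of stellate cells and fibroblasts were mostly positive. Of 17 neutrophil markers none passed by edgeR, 16 were positive, 11 were higher at an unadjusted p under 0.05, DESeq2 passed 3 and the median log2 fold change was 0.24. Their summed level was 2217 to 3088 CPM with rAAV9.CB.EGFP and 2064 to 2251 CPM with AAV9.empty, so the ranges met, and S100a8 was at 342, 374, 296 and 459 CPM against 285, 291, 290 and 288 CPM. The 16 stellate cell and fibroblast markers had a median of 0.22 and sums of 1192 to 1724 CPM and 1053 to 1314 CPM, and again none passed by edgeR or DESeq2, with 6 higher at an unadjusted p under 0.05. Des, the intermediate filament desmin, was at 66.6 CPM in rAAV9.CB.EGFP replicate 3 and at 11.03 to 13.2 CPM in the other 3, against 7.99 to 14.1 CPM. None of the markers of erythroid, megakaryocyte, Kupffer, T and NK, B, sinusoidal endothelial or bile duct cells passed by edgeR, and the medians of these lists lay between −0.11 and 0.06. The part of cell composition in the changes above was not tested. Over the 32 lists in which no member passed by edgeR, 55 of 646 genes were higher and 74 lower at an unadjusted p under 0.05, which is 19.97% of them against 12.48% of all genes, and DESeq2 passed 11 as higher and 7 as lower.

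The same 4 rAAV9.CB.EGFP livers were also set against the other groups. Because these comparisons share those livers, each gene's values are given side by side and are no repeats of each other. Gm47283, present in every PBS liver and in no rAAV9.CB.ST3GAL5 liver, was not a covariate in them, and its part was not tested. Against PBS, 82 of 14527 genes passed the adjusted p with a fold change of at least 2 (0.564%) and 537 passed with any fold change (3.7%). Over the 56 genes that rose against AAV9.empty, the median log2 fold change was 0.96 over AAV9.empty and 0.87 over PBS. Phlda3 was at 2.95 to 5.26 CPM with PBS (2.94, adjusted p = 2.58e-08), Ces2e at 44.4 to 51.4 CPM (1.68) and Sulf2 at 5.30 to 8.28 CPM (1.98). For Gm42047, at 26.2 to 97.98 CPM with PBS, the difference did not pass (0.9997, adjusted p = 0.0503), nor did it for Hamp, at 39.1 to 185 CPM (0.84, adjusted p = 0.174). Nor did it pass for Gm47761, Ftcd, H2aj, Saa4, Abhd4, Gm20634, Adnp, Aldh2, P2rx3 and Gm28959 (adjusted p of 0.0574 to 0.343 by edgeR). Beyond the genes named so far, Gm12744 averaged 7.89 ± 3.98 CPM (SD, n = 4) with rAAV9.CB.EGFP and had no count in any PBS liver, while the histone gene H3c14 had none with rAAV9.CB.EGFP and 2.07 ± 0.898 CPM (SD, n = 4) with PBS. Inmt was at 11.965 to 20.1 CPM with PBS, a log2 fold change of −2.64 (adjusted p = 4.98e-05), and Cyp4a12a, a male-biased fatty acid hydroxylase, at 0.602 ± 0.323 CPM with rAAV9.CB.EGFP and 3.42 ± 1.59 CPM with PBS (SD, n = 4 each, −2.49, adjusted p = 0.00254). Of the other genes that fell against AAV9.empty, Cldn2 and Anln passed against PBS (−0.78 and −0.58, adjusted p = 7.38e-05 and 0.00480 by edgeR). Slfn9 did not (−0.32, adjusted p = 0.307), nor did Brip1os, Gm20716, Aurkb and Kpna2 (adjusted p = 0.191, 0.284, 0.197 and 0.0511).

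Set against the vector with the same promoter and the ST3GAL5 cargo, far more genes differed. Of 14875 tested, 1134 passed with a fold change of at least 2 (7.62%), 580 higher and 554 lower in the rAAV9.CB.EGFP livers, and 4133 passed with any (27.8%). The genes that had risen over AAV9.empty lay near a difference of 0 here as a group, with a median log2 fold change of 0.00 and a range of −3.20 to 1.51. The 19 of them in the p53 lists had a median of −0.34 (range −1.40 to 0.78), and the 37 others one of 0.09. Cdkn1a was at 124 to 131 CPM with rAAV9.CB.EGFP and 182 to 205 CPM with rAAV9.CB.ST3GAL5 (−0.59, adjusted p = 0.000681), and Eda2r, at 2.46 to 3.71 CPM and 5.90 to 7.86 CPM, also differed (−1.33, adjusted p = 0.00190). Btg2 was lower by more, at 134 to 162 CPM and 362 to 447 CPM (−1.40, adjusted p = 0.000276), and Lif by most of the 56, at 1.34 to 2.63 CPM and 12.8 to 24.03 CPM (−3.20, adjusted p = 0.000292). Aen, at 57.9 to 63.0 CPM and 66.5 to 70.3 CPM, did not pass (−0.16, SE 0.065, adjusted p = 0.0932), nor did Ccng1 (−0.28, SE 0.12, adjusted p = 0.109) or Ces2e (0.22, SE 0.11, adjusted p = 0.173). Some genes ran the other way. Gstp3 was at 146 to 163 CPM and 63.3 to 71.1 CPM (1.23, adjusted p = 0.000166), and Dcxr at 62.6 to 69.2 CPM and 35.0 to 44.5 CPM (0.78, adjusted p = 0.000785). The largest differences in the whole table lay outside the 56 genes, with Fgf23, a hormone of phosphate balance, at 0.0289 ± 0.0577 CPM (SD, n = 4) and 10.2 ± 7.66 CPM (SD, n = 3), the elastase gene Mmp12 at 0.0518 ± 0.0422 CPM and 15.7 ± 11.4 CPM, Gm8818 at no count and 4.14 ± 0.775 CPM, Car5a, a mitochondrial carbonic anhydrase, at 5.29 ± 1.13 CPM and 0.499 ± 0.245 CPM, Nrap at 2.72 ± 3.38 CPM and 0.237 ± 0.0887 CPM, and Gm37736 at 1.19 ± 0.507 CPM and 0.0861 ± 0.0816 CPM.

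Few genes separated the reporter vector from rAAV9.Syn1.ST3GAL5.miR122BS. Only 12 of 14528 passed with a fold change of at least 2 (0.0826%) and 48 with any (0.33%), and the 56 genes had a median log2 fold change of −0.21. It was −0.27 for the 19 of them in the p53 lists and −0.14 for the 37 others. Cdkn1a was at 122 to 180 CPM with that vector (−0.29, SE 0.11, adjusted p = 0.250), Bax at 63.3 to 78.6 CPM (−0.36, adjusted p = 0.0732), Mdm2 at 37.7 to 50.2 CPM (−0.14, adjusted p = 0.544) and Tnfrsf10b at 7.94 to 10.3 CPM (−0.11, adjusted p = 0.842). None of these p53 targets passed, although the values of Bax did not overlap with the 53.7 to 58.8 CPM of the reporter vector. The genes that did pass included Fos, at 26.9 ± 3.37 CPM with rAAV9.CB.EGFP and 4.29 ± 0.580 CPM with rAAV9.Syn1.ST3GAL5.miR122BS (SD, n = 4 each) (log2 fold change 2.65, SE 0.13, adjusted p = 1.54e-06 by edgeR). Egr1, another immediate-early transcription factor, was at 113 ± 19.9 CPM and 31.3 ± 11.9 CPM (1.86, adjusted p = 0.00994), Rgs1, a regulator of G protein signalling, at 10.4 ± 1.43 CPM and 1.86 ± 0.653 CPM (2.49, adjusted p = 0.000490), and Cebpb at 61.8 to 80.8 CPM and 35.9 to 39.5 CPM (0.90, adjusted p = 0.000726). Lower in the rAAV9.CB.EGFP livers were Ccdc24 at −2.17, Mir17hg, the host transcript of the miR-17 cluster, at −1.38 and Gm42047 at −1.29 on the log2 scale, and Atp8b5, at 3.03 to 3.91 CPM and 5.47 to 7.94 CPM, passed as well (−0.94, adjusted p = 0.0464).

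**Figure D5:**
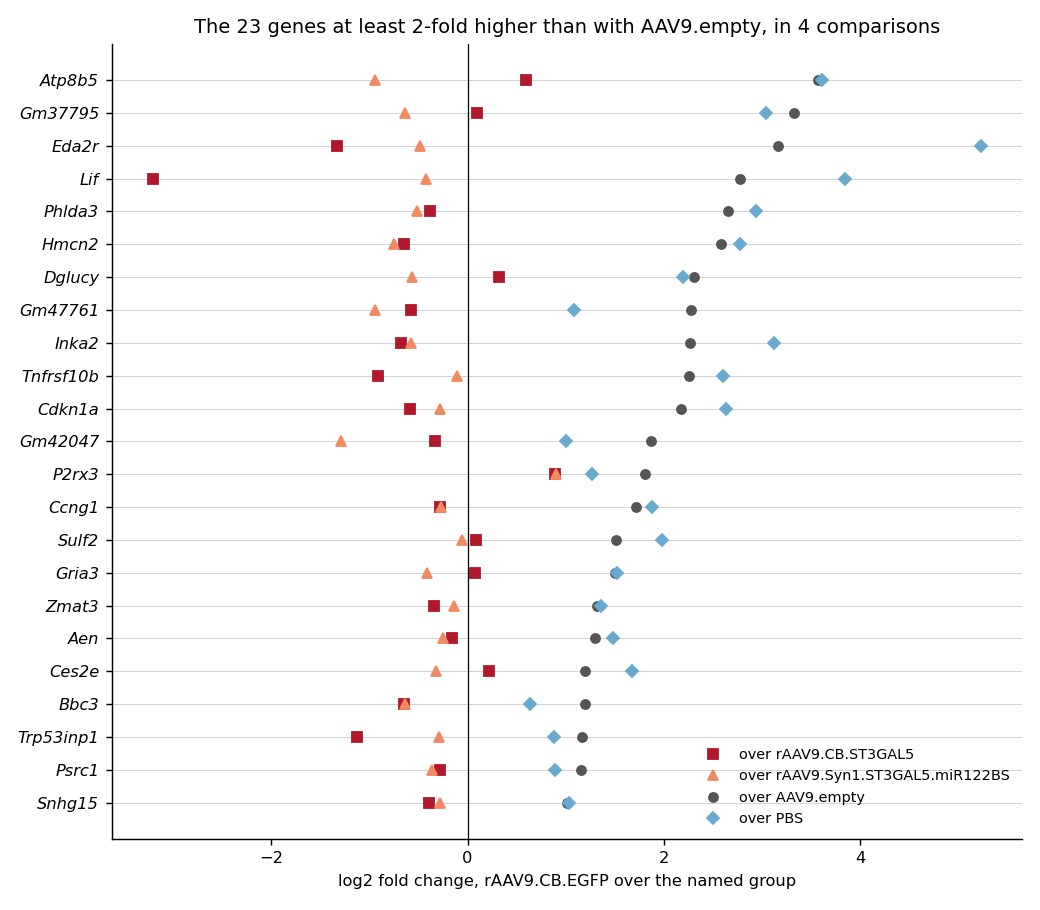
Log2 fold changes of rAAV9.CB.EGFP over rAAV9.CB.ST3GAL5 (squares), rAAV9.Syn1.ST3GAL5.miR122BS (triangles), AAV9.empty (circles) and PBS (diamonds) for the 23 genes at least 2-fold higher than with AAV9.empty, ordered by that value. The 4 sets share the rAAV9.CB.EGFP livers. Values over AAV9.empty and PBS lie right of 0, while those over the other vectors lie on both sides of it, down to −3.20 for Lif.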

How the data were processed

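Liver mRNA of 22 pups was sequenced by the study, and 8 libraries enter the main comparison. The authors trimmed reads with Trimmomatic, aligned them to mm10 with STAR and quantified GENCODE genes with RSEM, as the methods and the submitters' processing notes state. Tool versions and the GENCODE release are not given in the sources used here. The expected counts deposited by the authors estimate how many reads came from each gene and are not scaled for depth, and 5.69% of values are not whole, since reads that match several genes are shared out. They were rounded. The TPM values deposited by the authors are scaled for length and depth and served only as an alternative. Both tables hold 55291 genes, and 27475 of these were without a count in all libraries.

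Groups were compared in R 4.3.3 with edgeR 4.0.16 (filterByExpr, TMM, quasi-likelihood F-test, no covariate, only the 2 groups in each fit). A call needed a fold change of 2 or more and an adjusted p no higher than 0.05, and a list member counted as higher or lower at that adjusted p alone. The study's methods load the counts into DEBrowser and do not name the test used there for differential expression. SE values were derived from the edgeR results, as the absolute log2 fold change divided by the square root of the F statistic. Named were the 12 largest fold changes in each direction among called genes whose groups did not overlap and whose higher mean reached 1 CPM, the 10 smallest p-values, up to 4 members per list, any other member beside its count, genes the study names for the liver, and Gm47283, Erdr1 and Mid1. Other comparisons give the 3 largest in each direction. The members, the 43 gene lists and the tests were chosen with earlier results of these data known. Alternatives were DESeq2 1.42.0, limma 3.58.1 on log2(TPM + 1) or log2(TPM + 0.1) for genes whose mean TPM reached 1 or without a filter, other filters and size factors, all 6 groups in one fit, a robust dispersion, covariates, a replicate block and leaving out each liver. Scripts were tested on simulated data. Gene positions are those of GENCODE vM21 (GRCm38), and shared stretches of 31 bases were counted in its transcripts. All 64 genes past the adjusted p were matched, H2aj under the name H2afj. The number of livers limits precision. CPM values of low genes carry counting error.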

Additional observations from a re-analysis of the deposited data

Results flagged for a closer look

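Among the 64 genes past the adjusted p, each group of 4 livers was searched for 1 liver far from the other 3, and 5 of 128 groups had one, where chance gives about 1 in 20. Gm47761 was at 5.44 CPM in rAAV9.CB.EGFP replicate 1, above 3.61 to 3.87 CPM in the other 3. Gm20716 was at 47.2 CPM in rAAV9.CB.EGFP replicate 4, below 50.9 to 51.3 CPM in the others, and Kpna2 at 139.6 CPM in rAAV9.CB.EGFP replicate 1, above 106 to 111 CPM. Among the AAV9.empty livers, Zmat3 was at 5.94 CPM in replicate 3, below 7.85 to 8.06 CPM, and Adnp at 13.3 CPM in replicate 2, below 14.5 to 14.7 CPM.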

How the results depend on the processing

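None of the 64 genes past the adjusted p changed direction under any alternative that tested it. Of the 64, 19 passed in all 12 other settings and all 8 fits without 1 liver, and Atp8b5 and Gm37795 passed in the 10 settings that tested them and in those 8 fits. Among genes that did not pass, the sign was not fixed without 1 liver for Tnf (−0.05 to 0.66), Ccl2 (−0.07 to 0.20) and St3gal5 (−0.04 to 0.03). Where counts moved by over 1.5 times, the cause was not tested. Of genes at least 2-fold changed, 24 (23 higher, 1 lower), limma on log2(TPM + 1) gave 13, all higher and none lower, with or without a filter, and no minimum fold change gave 64 (56 higher, 8 lower). The 1 lower gene became 4 with DESeq2, 3 without a filter or with the presence of Gm47283 or an erythroid score as covariate, 2 with all 6 groups in one fit or a robust dispersion, and 0 with a mean count of at least 10. Of genes past the adjusted p, 56 higher became 157 with DESeq2, 90 with the erythroid score, and 28, 33 (pseudocount 0.1) and 27 (no filter) with limma. The 8 lower became 78, 75 and 1, 1 and 0 in the same fits, 20 without a filter, 18 with a robust dispersion and 5 with Gm47283. Of the 8, only Slfn9 and Aurkb were among these 5. Against PBS, 82 became 182 without a filter, and against rAAV9.Syn1.ST3GAL5.miR122BS 12 became 27 with DESeq2.

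Leaving out 1 liver gave 22 to 28 genes at least 2-fold changed (20 to 27 higher, 0 to 2 lower), 42 to 61 higher and 2 to 46 lower past the adjusted p, 72 to 120 against PBS, 875 to 1435 against rAAV9.CB.ST3GAL5 and 5 to 21 against rAAV9.Syn1.ST3GAL5.miR122BS. Past the adjusted p, 46 genes were lower without rAAV9.CB.EGFP replicate 1 and 16 without AAV9.empty replicate 4, against 2 and 3 without AAV9.empty replicates 1 and 2, 3 without rAAV9.CB.EGFP replicate 2 and 5 without its replicate 3. With the replicate number as a block (replicate block), 24 genes were at least 2-fold changed, all higher and 0 lower, 55 of the 64 kept their call, and 82, 860 and 15 genes differed from PBS, rAAV9.CB.ST3GAL5 and rAAV9.Syn1.ST3GAL5.miR122BS. Deviations from the group mean in same-numbered livers of rAAV9.CB.EGFP and AAV9.empty correlated at −0.08 to 0.21, over 0.1 in 1 of 4 pairs. With PBS the correlations were −0.05 to 0.04, and with rAAV9.Syn1.ST3GAL5.miR122BS −0.01 to 0.30, over 0.1 in 2 of 4 pairs. So few pairs cannot decide whether same-numbered livers share more than a number.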
